A study of Mus musculus with 69 samples.

Results

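The receptor subunits for glutamate and GABA were followed in single cells of the developing mouse cortex. The genes were chosen by symbol: the AMPA (Gria), kainate (Grik), delta (Grid), NMDA (Grin) and metabotropic (Grm) receptor genes for glutamate, and the GABA-A (Gabra, Gabrb, Gabrg, Gabrd, Gabre, Gabrr) and GABA-B (Gabbr) receptor genes. A total of 36 such genes were measured among 18194 genes. The RefSeq gene table holds 45 genes that fit the symbols, and the other 9 are not analysed here. No measured value entered the choice.

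The 69 cells came from CD1 mouse embryos at embryonic day 14, an outbred strain with no allele or treatment named, and each was amplified and hybridised to its own array. By the source label, 66 cells were from the germinal layers of the cerebral wall, the ventricular zone and subventricular zone (VZ/SVZ) that hold dividing progenitors. The other 3 were from the cortical plate (CP), the layer that newborn neurons build. Cells were picked by hand from trypsin-treated fragments without a sort, and the VZ/SVZ titles carry the letters A (7 cells), B (14), C (7), D (7) or X (31), whose meaning the labels do not give. The titles also carry a number, likewise unexplained: 5 of the 7 letter D cells carry 18, as no cell of another letter does, which leaves 2 with other numbers. CP shares no number with VZ/SVZ, so CP and its numbers cannot be told apart. For the 3 CP cells the description label gives the VZ/SVZ instead, so their group rests on the source label. No animal, litter or culture is named, so a group stands for 1 sample whatever its number of cells, and groups were compared without a test.

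Values are array signals on a linear scale. A signal above 50 is the level used here for detection: 18% of all values passed it, and none of the 207 values of the TrpnX control, whose RNA is not among those listed as added, did. Intervals behind a share are exact Clopper-Pearson 95% intervals, those of a difference of shares are Newcombe intervals, and both cover counting error between these cells only and test no group. Levels are mean log2 signals with values under 50 set to 50, ± SD over cells, and a difference of at least 1 log2 unit is called higher or lower by size alone. Where every cell of 1 group was under 50 and every cell of the other above it, such a difference is a lower bound.

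Glutamate and GABA are the main excitatory and inhibitory transmitters of the mature cortex, and both act on the embryonic cortex before most synapses form. AMPA, kainate and NMDA receptors are cation channels built from several subunits, and the GluA2 subunit encoded by Gria2 sets whether an AMPA receptor admits calcium. GABA-A receptors are chloride channels, which tend to depolarise immature cells because their chloride is high. Metabotropic glutamate receptors and GABA-B receptors signal through G proteins. The markers used here are Sox2, a transcription factor of neural progenitors, Eomes, one of intermediate progenitors, and Tubb3, a neuronal tubulin. Many cells held several of them, as counted below.

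The labelled tissue was first set against marker genes. All 3 CP cells and all 7 letter D cells were above 50 for Stmn2, Tbr1, Dcx and Tubb3, and none was for Sox2, Pax6 or Eomes. Other listed markers were less uniform. The neuron markers Mapt and Bcl11b were above 50 in 4 and 5 of 7 letter D cells, and in all 3 CP cells. Some progenitor markers were above 50 too: Insm1 in 7 letter D and 2 CP cells, Vim in 2 and 2, and Fabp7 in 2 and 0. Neurog2 was in 3 letter D cells and Neurod1 in 2, and neither in a CP cell. Btg2, Nes and Slc1a3 were each in 1 CP cell and 0 letter D cells. Of 66 VZ/SVZ cells, 49 were above 50 for Sox2, 28 for Eomes and 35 for Tubb3. The markers overlapped: Sox2 was above 50 in 21 of the 28 cells with Eomes and in 19 of the 35 with Tubb3. Eomes was above 50 in 17 of those 35, and 11 cells had all 3, so a split by 1 marker does not separate cell types. Markers of endothelial cells, microglia and erythroid cells were above 50 in 0 of 69 cells. The interneuron markers Gad1, Dlx2, Dlx5 and Lhx6 were each above 50 in 1 cell, and Gad2 and Dlx1 in 0. Reln of Cajal-Retzius cells was above 50 in 4 VZ/SVZ cells, Dcn in 3 and Col1a2 and Pdgfrb in 2 each (pericyte and meningeal genes), and Olig2 and Sox10 of the oligodendrocyte lineage in 1 each. Genes above 50 per cell ranged from 3726 to 5715 in VZ/SVZ cells (median 4712) and from 3713 to 4719 in CP cells (median 3904). Of the bacterial RNAs added before lysis, those at 1000, 100 and 20 copies per cell were above 50 in 69 of 69 cells, and the one at 5 copies in 27 of 69 (39.1%), with 0 of 3 CP cells and 1 of 7 letter D cells. A transcript present in a few copies could therefore be missed in a given cell.

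Most of the receptor subunit genes were not detected. Only 6 of the 36 (16.7%) were above 50 in at least 7 cells, against 48.3% of all 18194 genes, and 22 (61.1%) were above 50 in no cell, against 38.4% of all genes. These counts, and the shares of all genes, hold for the 1 probe set chosen per gene. Grik3, Grin2d and Gabrb2, among the 22, were above 50 by another of their probe sets, which leaves 19. Grik1, not among the 6, was above 50 in 8 cells by its other probe set. The 6 were Gria2 (64 of 69 cells), Gabbr1 (41), Grik5 (36), Gria3 (17), Grik2 (12) and Grin2b (9). Another 8 were above 50 in 1 to 6 cells. Each gene was read by its own probe set, so a share at a common signal does not rank the genes by abundance. Gria2 was among the widely detected genes of these cells: 4.9% of all genes were above 50 in at least 64 cells.

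**Figure D1:**
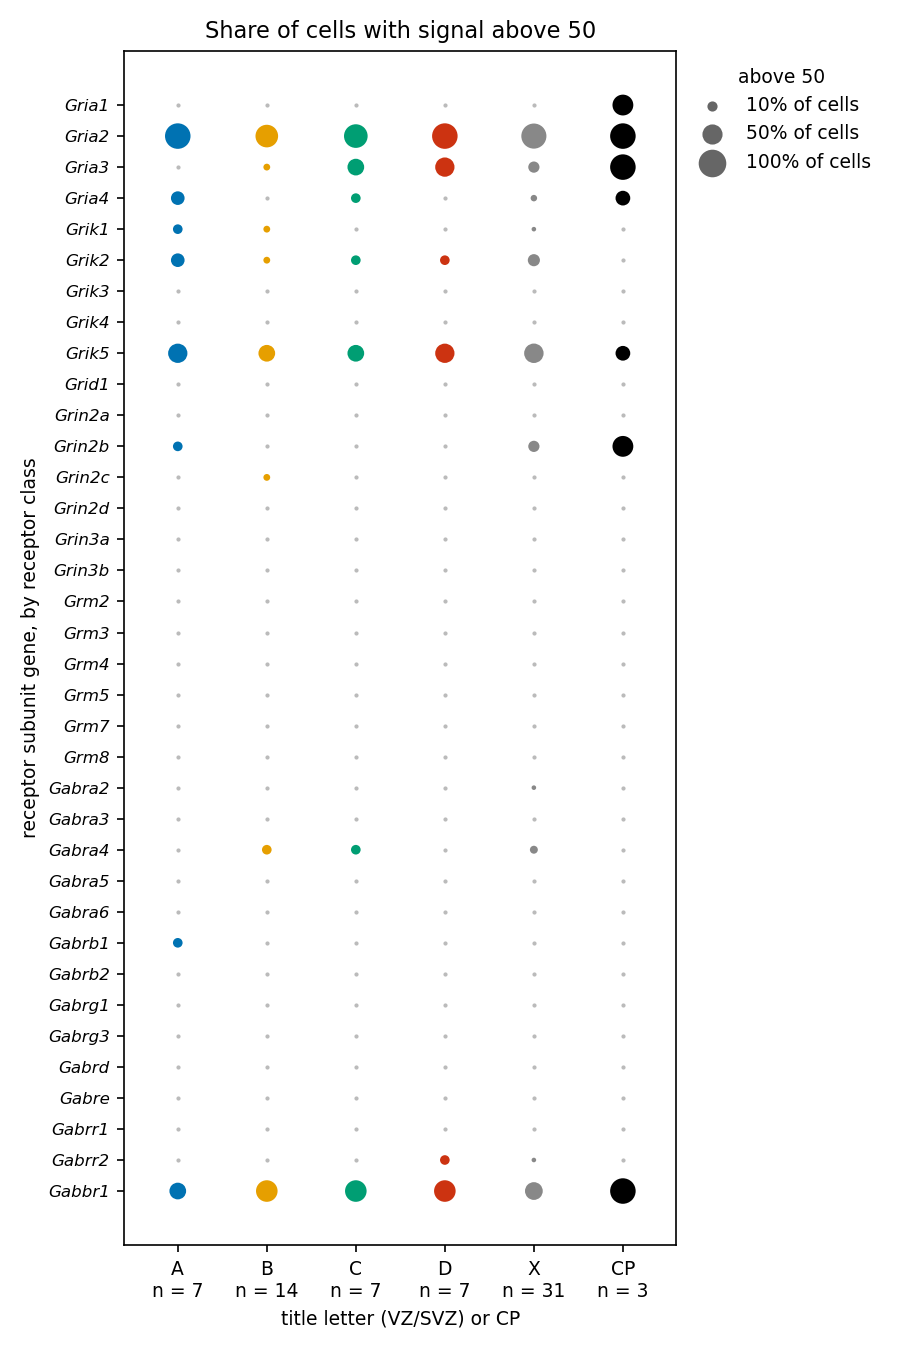
Share of cells with a signal above 50 (dot area, in percent) for each of the 36 receptor subunit genes (rows, by receptor class) in each title letter of the VZ/SVZ cells and in the CP cells (columns, with the number of cells). Gria2, Grik5 and Gabbr1 have a dot in every column, and the 22 genes with only a small grey point in each column were above 50 in no cell by the probe set chosen.

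For the 3 genes detected most widely, the promoter is printed from RefSeq (build GRCm38.p6), since differences between cells are described for each of them below. Each sequence runs 5′ to 3′ on the gene's strand, from 250 bases before to 50 bases after the start, with every CG dinucleotide in capitals. The letters CG read the same on both strands.
Gria2, chr3:80802786-80803085, minus strand: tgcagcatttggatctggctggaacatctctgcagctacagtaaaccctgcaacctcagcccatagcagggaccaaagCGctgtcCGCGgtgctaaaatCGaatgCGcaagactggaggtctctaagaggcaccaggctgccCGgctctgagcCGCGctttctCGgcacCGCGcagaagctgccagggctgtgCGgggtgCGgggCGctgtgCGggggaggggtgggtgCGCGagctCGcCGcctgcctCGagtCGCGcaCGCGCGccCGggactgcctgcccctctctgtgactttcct
Grik5, chr7:25072320-25072619, minus strand: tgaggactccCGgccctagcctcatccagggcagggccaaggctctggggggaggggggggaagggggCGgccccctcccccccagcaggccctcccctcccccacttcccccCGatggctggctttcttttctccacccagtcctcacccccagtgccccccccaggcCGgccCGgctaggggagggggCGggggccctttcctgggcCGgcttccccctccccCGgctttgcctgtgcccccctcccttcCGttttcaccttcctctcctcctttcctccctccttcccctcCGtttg
Gabbr1, chr17:37045716-37046015, plus strand: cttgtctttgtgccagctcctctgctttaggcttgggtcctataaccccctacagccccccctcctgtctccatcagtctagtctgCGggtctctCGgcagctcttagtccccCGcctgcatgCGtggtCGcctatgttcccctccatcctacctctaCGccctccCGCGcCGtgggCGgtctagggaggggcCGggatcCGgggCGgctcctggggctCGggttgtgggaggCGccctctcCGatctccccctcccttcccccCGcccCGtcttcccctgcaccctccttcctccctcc
Gria2 had 26 CG dinucleotides in these 300 bases, a number that 16.9% of all promoters of this length reached. Gabbr1 had 18 (29.7% reached it) and Grik5 had 10 (43.5%). The 16 members with an entry that were undetected by the probe set chosen had a median of 12.5, but ran from 0 to 50. Among them, Grik3 had 50 and Grik4 had 42, more than Gria2. The 14453 measured genes with an entry had a median of 18 and ran from 0 to 67. Gria1, Gria3 and Grin2b have no entry in this table.

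Gria2, the AMPA subunit that limits calcium entry, was above 50 in 61 of 66 VZ/SVZ cells (92.4%, 83.2 to 97.5) and in all 3 CP cells. Its VZ/SVZ signals ran from 0.36 to 5575 with a median of 701. The 3 CP cells read 605, 1030 and 1131, which lies inside the VZ/SVZ range. Among the title letters, the 7 letter D cells stood highest, at 2362, 2895, 2982, 3513, 3555, 3594 and 4500. Letter A cells ran from 274 to 1578 (median 723), letter B cells from 0.36 to 2578 (median 330), letter C cells from 43.8 to 1930 (median 709) and letter X cells from 5.5 to 5575 (median 935). Letter D did not overlap with letters A and C or with CP, it overlapped with letter B by the highest B cell, and it lay inside the range of letter X.

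The mean log2 level of Gria2 was 11.7 ± 0.296 in letter D (SD, n = 7 cells) and 8.05 ± 1.61 in letter B (n = 14), a difference of 3.63. Only 19 of the 18194 genes, Gria2 included, differed by at least this much in that direction. Without the 5 cells numbered 18, the difference was 3.44, on 2 letter D cells. The letters share 1 title number, 9, in which the letter D cell read 2362 and the 2 letter B cells read 637 and 2578. CP cells, at 9.80 ± 0.486 (n = 3), were 1.88 below letter D, although both sets of cells were above 50 for neuronal markers. The summed signal of the 8 neuron markers ran from 11884 to 15751 in letter D, from 12964 to 17417 in CP and from 403 to 9249 in letter B. That of the 8 apical progenitor markers ran from 24.9 to 586 in letter D and from 2994 to 17755 in letter B. Letter D cells had fewer genes above 50 (median 4135) than letter B cells (median 4828.5). The part of these differences between cells in the Gria2 result was not tested.

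All 3 probe sets that read Gria2 alone gave the same order of letters D and B. The second was above 50 in 7 of 7 letter D cells, at 172 to 1136, and in 4 of 14 letter B cells. The third was above 50 in 7 of 7 letter D cells, at 268 to 1478, and in 3 of 14 letter B cells. Over all 69 cells they were above 50 in 42 and 36 cells, and 41 and 36 of these were also above 50 for the first.

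**Figure D2:**
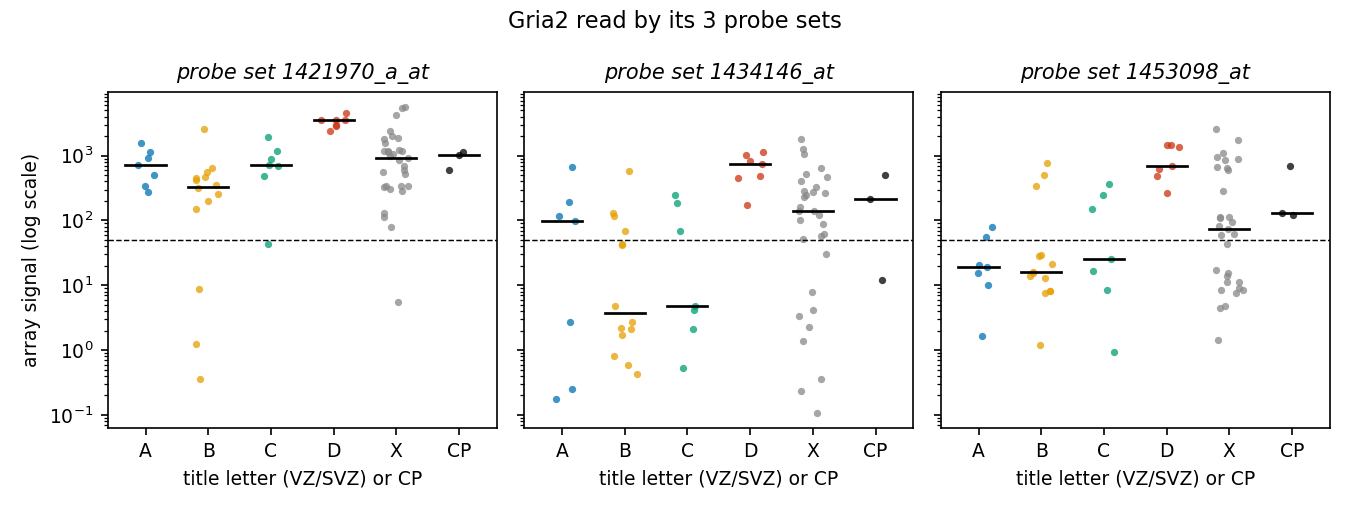
Gria2 signal in each cell (points, log axis) by title letter and in CP, read by its 3 probe sets, with the median of each set of cells (bar) and a signal of 50 (dashed line). Each panel has all 7 letter D cells above 50, with medians of 3513, 741 and 704, and letter B medians of 330, 3.74 and 15.8.

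Split by markers, Gria2 by the probe set chosen differed in level more than in the share of cells. That share was high in every set of cells, which left it little room to differ. It was above 50 in 45 of 49 VZ/SVZ cells with Sox2 and in 16 of 17 without, but the median signal was 519 with Sox2 and 2895 without. The mean log2 level was 8.87 ± 1.49 with Sox2 and 10.8 ± 1.70 without, a difference of -1.97. By Tubb3, the level was 9.89 ± 1.81 in 35 cells above 50 and 8.81 ± 1.54 in the other 31, a difference of 1.08. By Eomes, it was 8.79 ± 1.71 in 28 cells above 50 and 9.82 ± 1.70 in the other 38, a difference of -1.03. Within letter X alone the Sox2 difference was -2.21 and the Tubb3 difference 0.87, while the Eomes difference turned to 0.33. With the title number as a block they were -1.14, 0.72 and -1.36, and without the cells numbered 18 they were -1.59, 0.77 and -0.74. The second probe set was above 50 in 27 of 49 cells with Sox2 and 13 of 17 without, and the third in 20 and 13. With Eomes they were above 50 in 11 and 11 of 28 cells, and without it in 29 and 22 of 38. By Tubb3, the mean levels were 7.19 with and 6.96 without for the second, and 7.52 and 6.52 for the third.

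When the 3 markers were read together, a grouping chosen after the values were seen, Gria2 was highest in the 10 VZ/SVZ cells with Tubb3 and neither Sox2 nor Eomes. These were the 7 letter D cells and 3 letter X cells, whose signals were 4180, 5444 and 5575. The 10 cells ran from 2362 to 5575 (median 3575), and 2 of the other 56 VZ/SVZ cells exceeded the lowest of them, with a highest signal of 2578. The mean log2 level was 11.9 ± 0.397 in the 10 cells and 8.94 ± 1.53 in the 56, a difference of 2.93. The 6 cells with Eomes and Tubb3 but no Sox2 had a median of 990. The 20 cells with Sox2 alone had a median of 535, and all 20 were above 50. CP cells carry the same 3-marker pattern as the 10 cells and were 2.07 below them.

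**Figure D3:**
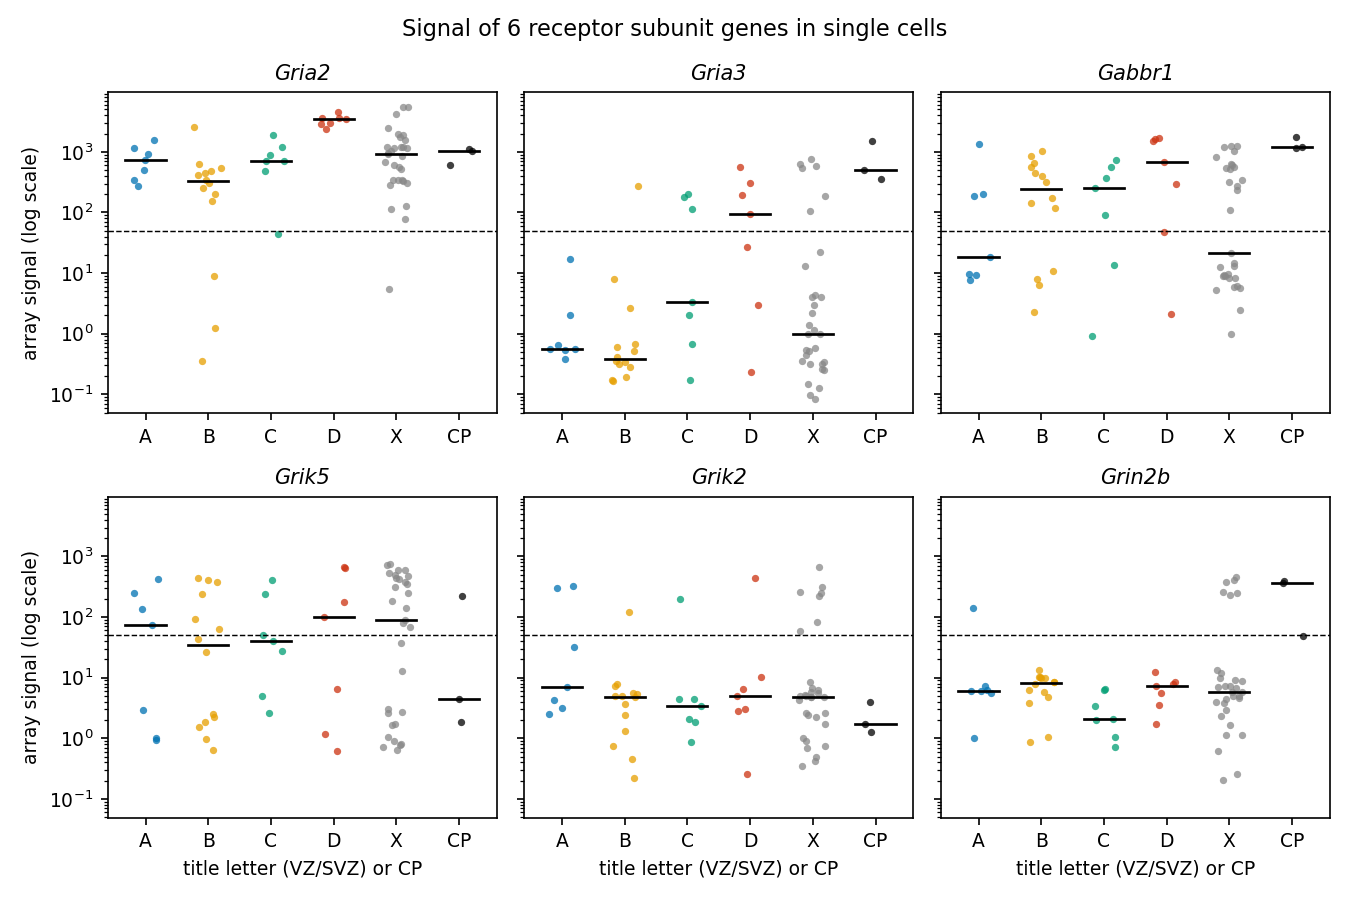
Signal in each of the 69 cells (points, log axis) of the 6 receptor subunit genes above 50 in at least 7 cells, by title letter and in CP, with the median (bar) and a signal of 50 (dashed line). Letter D cells sit between 2362 and 4500 for Gria2, and the 3 CP cells sit highest by median for Gria3, Gabbr1 and Grin2b.

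Gria3, the AMPA subunit GluA3, was above 50 in all 3 CP cells, at 356, 504 and 1494. It was above 50 in 14 of 66 VZ/SVZ cells (21.2%, 12.1 to 33), where the highest signal was 758. Its mean log2 level reached 9.33 ± 1.08 in CP (n = 3) and 6.16 ± 1.10 in VZ/SVZ (n = 66), a difference of 3.17. By letter it was above 50 in 0 of 7 A cells, 1 of 14 B cells, 3 of 7 C cells, 4 of 7 D cells and 6 of 31 X cells. The 7 letter D cells read 0.23, 2.94, 27.3, 93.9, 193, 302 and 561, so 1 of them lay above the lowest CP cell. Letter D was 1.10 above letter B, but the 4 letter D cells above 50 all carry the number 18. Without that number the difference was -0.18, on 2 letter D cells, at 2.94 and 27.3 and both set to 50. It then reflects only the 1 letter B cell above 50. CP was 2.41 above letter D, and at least 3.69 without the number 18. By Tubb3 the share was 10 of 35 against 4 of 31, a difference of 15.7 percentage points (Newcombe 95% interval, -4.44 to 33.9). Its second probe set was above 50 in 4 cells, 2 of them in CP.

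Gria1, the AMPA subunit GluA1, was above 50 in 2 cells, both in CP. The 3 CP cells read 1389, 123 and 0.57, and the highest of the 66 VZ/SVZ cells read 28.6, so 2 of 3 CP cells lay above every VZ/SVZ cell. A share of 0 of 66 allows up to 4.55% of cells above 50. The difference of the means was 2.03. It was 0.65 without the CP cell at 1389 and at least 3.05 without the one at 0.57. A second probe set placed Gria1 above 50 in 1 CP cell and in 3 VZ/SVZ cells, all with Tubb3, at up to 1627. Gria4, the AMPA subunit GluA4, was above 50 in 5 VZ/SVZ cells and 1 CP cell, at up to 995.

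Gria2 and at least 1 other AMPA subunit were above 50 in 19 of 69 cells (27.5%, 17.5 to 39.6), among them 3 of 3 CP cells and 4 of 7 letter D cells. Another AMPA subunit without Gria2 was found in 1 cell. Gria2 was above 50 in 92.8% of all cells, so most cells with any other gene also hold it.

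Grik5, a kainate subunit (GluK5) that forms channels only with another kainate subunit, was above 50 in 35 of 66 VZ/SVZ cells (53%, 40.3 to 65.4). The 3 CP cells read 1.83, 4.42 and 226. Grik5 was less common in cells with Eomes: 9 of 28 cells with Eomes and 26 of 38 without were above 50, a difference of -36.3 percentage points (Newcombe 95% interval, -55.2 to -11.9). On the log2 scale the mean was 6.19 ± 1.06 with Eomes and 7.42 ± 1.5 without, a difference of -1.23. Within letter X, 1 of 8 cells with Eomes and 17 of 23 without were above 50, which differ by -61.4 points (-78.4 to -21.3). The number of genes above 50 per cell had a median of 4644.5 with Eomes and 4810.5 without. By Sox2 and by Tubb3, Grik5 differed by under 1 log2 unit, at -0.004 and -0.30.

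Grik2, the kainate subunit GluK2, was above 50 in 12 of 66 VZ/SVZ cells (18.2%, 9.76 to 29.6) and in 0 of 3 CP cells, whose signals were 1.29, 1.70 and 4.04. No comparison of Grik2 reached 1 log2 unit. Grik1, the subunit GluK1, was above 50 in 3 VZ/SVZ cells, and its second probe set in 8 VZ/SVZ cells, 7 of them of letter X. Grik3, the subunit GluK3, was above 50 in no cell by the probe set chosen, but its second probe set read 352, 364 and 1032 in the 3 CP cells. That probe set was above 50 in 3 of 66 VZ/SVZ cells, all with Tubb3 (1 of letter D and 2 of letter X). Grik4 was above 50 in no cell. Of the 36 cells with Grik5, 11 also had Grik1, Grik2 or Grik3 above 50 by the probe sets chosen and 25 did not. With any probe set of each gene, 16 had a partner, the CP cell among them, and 20 did not. A partner not detected is not shown to be absent, as the RNA added at 5 copies was above 50 in 27 of 69 cells.

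Grin2b, the NMDA subunit GluN2B, read 48, 361 and 393 in the 3 CP cells. It was above 50 in 7 of 66 VZ/SVZ cells (10.6%, 4.37 to 20.6), of which 6 were of letter X and 1 of letter A. All 14 B cells, 7 C cells and 7 D cells were under 14, and 0 of 7 D cells allows a share of up to 42.9%. CP was 1.68 above VZ/SVZ and 1.94 above letter D. These differences were 2.65 and at least 2.91 without the CP cell at 48, and 1.16 and 1.43 without the one at 393. Of 3 other probe sets of Grin2b, none was above 50 in a VZ/SVZ cell, and 1 was in a CP cell: it read 181 in the cell that the chosen probe set read at 48. Inside the VZ/SVZ group, Grin2b was above 50 in 7 of 49 cells with Sox2 and 0 of 17 without. The shares differ by 14.3 percentage points (Newcombe 95% interval, -5.50 to 26.7). By Tubb3, 1 of 35 cells with it against 6 of 31 without was above 50. That difference was -16.5 percentage points (Newcombe 95% interval, -33.6 to -1.02), and within letter X it was -15.9 points (-39.0 to 15.9). The means by Tubb3 differed by -0.39.

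The other NMDA genes were almost silent at this level. Grin2c (GluN2C) was above 50 in 1 letter B cell, at 515, and Grin2a, Grin2d, Grin3a and Grin3b were above 50 in no cell by the probe set chosen. A second probe set of Grin2d was above 50 in 1 cell. Grin1, which encodes the subunit that every NMDA receptor needs, is not analysed here. The delta receptor gene Grid1 and the metabotropic receptor genes Grm2, Grm3, Grm4, Grm5, Grm7 and Grm8 were above 50 in no cell, which allows a share of up to 4.35% of cells for each.

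Gabbr1, the GABA-B subunit that binds GABA, was above 50 in 38 of 66 VZ/SVZ cells (57.6%, 44.8 to 69.7) and read 1143, 1208 and 1732 in the 3 CP cells. The VZ/SVZ signals had a median of 181 and a highest of 1670, so 1 CP cell lay above all of them. The mean log2 level was 10.4 ± 0.326 in CP (n = 3) and 7.52 ± 1.84 in VZ/SVZ (n = 66), a difference of 2.87. This rests on the probe set chosen: a second read 162, 2.42 and 5.38 in the CP cells, with means of 6.21 in CP and 5.97 in VZ/SVZ, another was above 50 in 0 of 3 CP and 8 of 66 VZ/SVZ cells, and the last in no cell. By letter it was above 50 in 3 of 7 A cells, 10 of 14 B cells, 5 of 7 C cells, 5 of 7 D cells and 15 of 31 X cells. The 7 letter D cells spread widely, at 2.09, 46.9, 299, 671, 1487, 1623 and 1670. CP was 1.70 above letter D.

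By the probe set chosen, Gabbr1 was also lower in cells with Sox2. It was above 50 in 25 of 49 cells with Sox2 and 13 of 17 without, a difference of -25.5 percentage points (Newcombe 95% interval, -44.9 to 1.81). On the log2 scale the mean was 7.16 ± 1.66 with Sox2 and 8.56 ± 1.98 without, a difference of -1.41, which was -2.04 within letter X and -0.76 with the title number as a block. Of its other probe sets, a second had means of 5.98 with Sox2 and 5.94 without, and another 5.97 and 6.05. By Tubb3 the difference was 0.95, just under 1 log2 unit. The probe sets did not rank the letters alike either: the second was above 50 in 6 of 7 A cells, 3 of 14 B cells and 8 of 31 X cells, and in 12 of the 41 cells of the one chosen. Gabbr2, the partner that brings the receptor to the cell surface, is not analysed here.

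**Figure D4:**
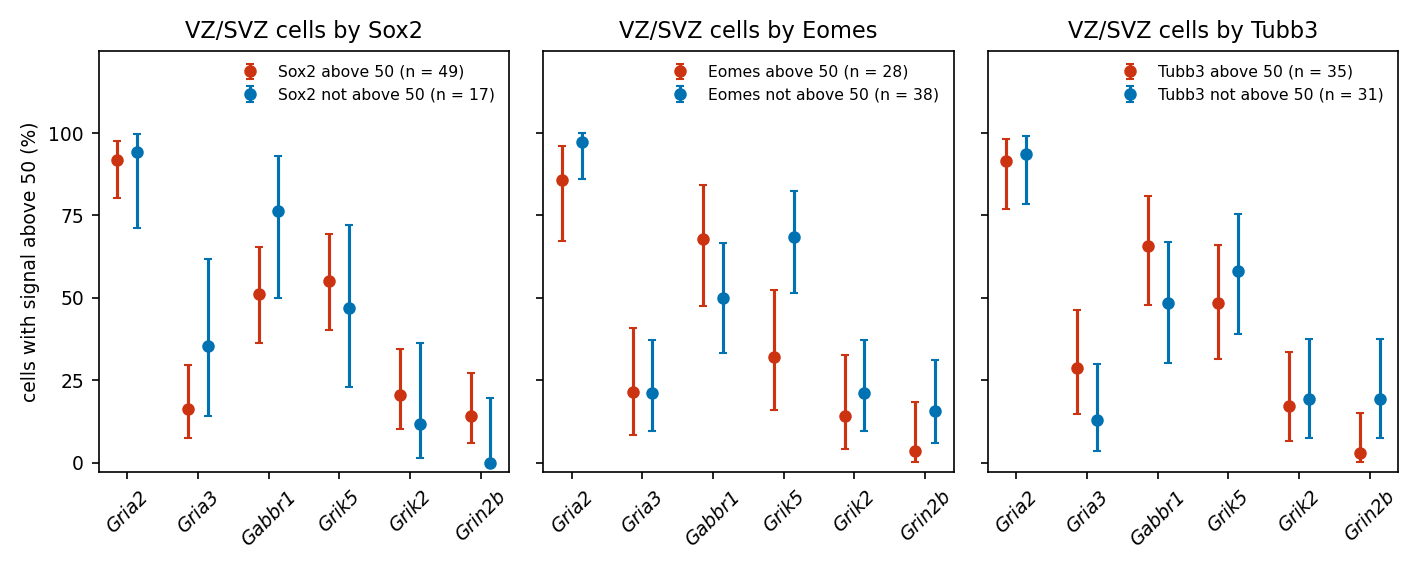
Share of VZ/SVZ cells with a signal above 50 (points, in percent, with exact Clopper-Pearson 95% intervals for counting error) for 6 receptor subunit genes, split by Sox2, Eomes or Tubb3 above 50 (red) or not (blue). Each gene is read by the probe set chosen. Grik5 separates most by Eomes (32.1% with and 68.4% without), while the Gria2 shares lie between 85.7% and 97.4% in all 6 sets of cells.

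The GABA-A subunits were rarely detected. By the probe sets chosen, any of the 13 measured was above 50 in 10 of 69 cells (14.5%, 7.17 to 25), none of them in CP. With any probe set of each gene it was 13 cells, 1 of them in CP. Gabra4 (alpha 4) was above 50 in 6 cells, 2 of letter B, 1 of C and 3 of X, at 52.3 to 1142. Gabrr2 (rho 2) was above 50 in 2 cells at up to 237, Gabra2 (alpha 2) in 1 letter X cell at 338, and Gabrb1 (beta 1) in 1 letter A cell at 314. Gabra3, Gabra5, Gabra6, Gabrb2, Gabrg1, Gabrg3, Gabrd, Gabre and Gabrr1 were above 50 in no cell by the probe set chosen, and another probe set of Gabrb2 was above 50 in 3 VZ/SVZ cells and in 1 CP cell, at 204. An alpha and a beta subunit, the minimum from which most GABA-A channels are built, were above 50 together in 0 of 69 cells, which allows up to 4.35%. Not all GABA-A subunits are analysed here, so a missing partner is not shown to be absent.

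Counted over all 36 genes, the comparisons with the 3 CP cells called the most. The share of all genes called also varied between comparisons, so it is given beside each count. Against VZ/SVZ, 4 of 36 (11.1%: Gria1, Gria3, Grin2b and Gabbr1) were higher and 0 lower, where 5.07% of all genes were higher and 12.9% lower. Against letter D, the same 4 were higher, where 5.26% of all genes were, and 1 (Gria2, 2.78%) was lower, where 8.3% were. Without the second CP cell, the only one with Grik5 above 50, 1 gene was lower than in VZ/SVZ and 2 were lower than in letter D. Both comparisons use the same 3 CP cells, and without the first, Gria1 no longer reached 1 log2 unit. For letter D against letter B, 2 (5.56%: Gria2 and Gria3) were higher, where 4.83% of all genes were, and 0 were lower, where 8.74% were. That share of higher genes is close to the background, and 1 gene, Gria2, was higher without the title number 18.

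For the marker splits of VZ/SVZ cells, the counts were small. By Tubb3, 1 of 36 (2.78%, Gria2) was higher, where 1.76% of all genes were, and 0 lower, where 2.6% were. By Sox2, 2 (5.56%, Gria2 and Gabbr1) were lower, where 3.28% of all genes were, and 0 higher, where 5.31% were. By Eomes, 2 (5.56%, Gria2 and Grik5) were lower, where 1.14% of all genes were, and 0 higher, where 1.1% were. Without the title number 18, the counts were 0 higher by Tubb3, 2 lower by Sox2 and 1 lower by Eomes. Over the 6 genes above 50 in at least 7 cells, the median difference was 1.05 for CP against VZ/SVZ, 0.77 for letter D against letter B and 0.62 for CP against letter D. Genes detected that widely over the whole array had medians of -0.43, -0.21 and -0.10. The same medians by Tubb3, Sox2 and Eomes were 0.10, -0.23 and -0.17, beside -0.04, 0.11 and -0.002 for all such genes. Over all 36 genes the median was 0 in each comparison, as it was over all genes.

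Each cell held few of these genes. All 69 cells had at least 1 above 50, with a median of 3 and a highest of 6. The CP cells had 4, 5 and 6, letter B cells a median of 2, and letters A, C, D and X a median of 3. By median, CP cells had more receptor subunit genes (5) and fewer genes above 50 in all (3904) than VZ/SVZ cells (3 and 4712), but 1 letter D cell also had 6 and 1 CP cell had 4719 genes. Gria2, Gabbr1 and Grik5 were above 50 together in 20 of 69 cells (29%, 18.7 to 41.2).

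**Figure D5:**
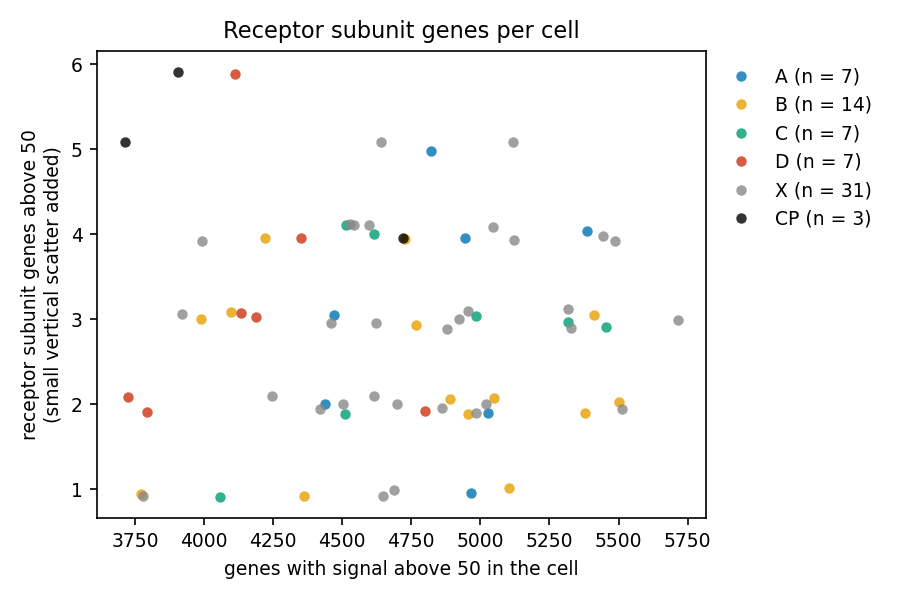
Receptor subunit genes above 50 in each of the 69 cells (vertical axis, with a small scatter so that points do not cover each other) against all genes above 50 in that cell (horizontal axis), coloured by title letter or CP. The 3 CP cells have 4, 5 and 6 receptor subunit genes, at 3713 to 4719 genes in all.

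Genes that act with these receptors were counted in 8 lists, of which 63 of 72 genes were measured. Among genes that make or release glutamate (3 of 6 measured), Slc17a6, the vesicular transporter VGLUT2, was above 50 in 14 of 35 cells with Tubb3 and 1 of 31 without, a difference in mean log2 level of 1.3. It was above 50 in 6 of 7 letter C cells and in 1 of 7 letter D cells, and in 0 of 3 CP cells. Slc17a7, the transporter VGLUT1, was above 50 in 2 of 3 CP cells and 2 of 66 VZ/SVZ cells. Among glutamate uptake genes (5 measured), Slc1a3, the transporter GLAST of radial glia, was above 50 in 9 of 35 cells with Tubb3 and 24 of 31 without, a difference of -1.74. Slc1a2, the transporter GLT-1, was above 50 in no cell.

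The GABA machinery was mostly undetected. Of 7 measured genes for GABA synthesis, release, uptake and breakdown, 0 differed by 1 log2 unit in any of the 6 comparisons. Gad2, Slc32a1, Slc6a13 and Abat were above 50 in no cell, and Gad1 and Slc6a11 in 1 each. Aldh5a1 was the exception, above 50 in 28 of 69 cells: 13 of 35 with Tubb3, 14 of 31 without and 1 CP cell. Chloride transporters decide which way GABA-A currents run: Slc12a2 (NKCC1) loads chloride and Slc12a5 (KCC2) removes it. Slc12a2 was above 50 in 13 of 35 cells with Tubb3 and 23 of 31 without, a difference of -1.25. Slc12a5 was above 50 in 6 of 69 cells: 1 of 35 with Tubb3, 5 of 31 without and no CP cell, a difference by Tubb3 of -0.40.

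Of the 14 auxiliary subunits of glutamate receptors, 3 were higher in CP than in VZ/SVZ (Cacng2, Cacng4 and Cnih2) and 0 lower. Of all genes, 5.07% were higher and 12.9% lower. None of the 14 passed 1 log2 unit by Tubb3. Cacng2 was above 50 in only 1 of 3 CP cells, at 758, and in 4 of 66 VZ/SVZ cells. Cacng4 (TARP gamma 4) was above 50 in 3 of 3 CP cells, at 268 to 1066, and in 23 of 66 VZ/SVZ cells. Cnih2, a cornichon protein that escorts AMPA receptors, was above 50 in 28 of 35 cells with Tubb3 and 16 of 31 without, a difference of 0.88. Neto2, an auxiliary subunit of kainate receptors and not among those called, was above 50 in 3 of 3 CP and 39 of 66 VZ/SVZ cells. Of 14 measured scaffold and trafficking genes for glutamate receptors, 1 was higher in CP, and 0 passed 1 log2 unit by Tubb3. The scaffold gene Dlg3 (SAP102) differed by 0.92 by Tubb3, while Dlg2, Grip2, Shank1 and Shank3 were above 50 in no cell and Dlg4 (PSD-95) was in 1.

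Of 10 measured scaffold and trafficking genes for GABA receptors, 3 were higher in cells with Tubb3: Gabarapl1 by 1.37, Trak2 by 1.33 and Kif5a, a kinesin of neurons, by 1.02. The list had 4 higher in letter D than in letter B (4.83% of all genes were), 3 higher in CP than in VZ/SVZ (5.07%) and 2 lower in CP than in letter D (8.3%). By Tubb3, 1.76% of all genes were higher. Gabarap, the GABA-A receptor associated protein that also serves autophagy, was above 50 in 69 of 69 cells, and Gphn (gephyrin, the scaffold of inhibitory synapses) in 20. These genes have roles beyond GABA receptors. Among related receptors outside the symbols used, the glycine receptor subunit Glra2 was above 50 in 2 of 3 CP cells, at up to 925, and in 0 of 66 VZ/SVZ cells, which allows up to 4.55%. Glrb, the glycine receptor beta subunit, was above 50 in 15 VZ/SVZ cells and no CP cell.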

How the data were processed

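Single cells were lysed with added bacterial spike RNAs, amplified and hybridised to 1 Affymetrix array each, per the labels' protocols. The deposited values are linear intensities per probe set, made by the authors with MAS5 per the submitters' processing notes (version not given), and the scaling is not given in the sources used. Trimmed means (2% off each end) ran from 50.1 to 142 over cells, and arrays give no read depth, so the number of cells limits precision. No column was rescaled.

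Of 45101 probe sets, 34958 had 1 gene in the platform annotation, 932 several and 9211 none, and only the first were used. Where several probe sets read 1 of the 18194 genes, the one highest in mean log2 of the deposited signal over 69 cells was taken. This choice left Gria1, Grik1, Grik3, Grin2d and Gabrb2 on a probe set above 50 in fewer cells than another of theirs, which the text gives too. The 36 members have 77 such probe sets, and all have their gene in RefSeq (GRCm38.p6) under the same symbol.

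Signals under 50 were set to 50 before log2. Group means were compared cell set by cell set, with Newcombe intervals for shares, in Python 3.11.15 with numpy 2.4.6, pandas 2.3.3 and scipy 1.17.1 (figures: matplotlib 3.10.9). No p-value was computed. On simulated data from resampled cells, 34 against 32, all changed genes (100%) and 0.522% of unchanged genes passed 1 log2 unit. The changed genes were drawn from those above 200 in most cells and raised by more than 1 log2 unit, so their recovery was nearly certain. Some comparisons here use far fewer cells, down to 3, and most members were under 50 in most cells. These shares are therefore no error rate for the comparisons reported. Members above 50 in at least 7 cells are described in full, and up to 4 genes per companion list were to be taken by their Tubb3 difference; others named were chosen after their values were seen. Members and lists were chosen with earlier results of these data known. Alternatives were other floors, probe set choices, scalings, marker thresholds, letter X alone or left out, the title number 18 left out, the title number as a block, and each CP cell left out.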

Additional observations from a re-analysis of the deposited data

Results flagged for a closer look

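In letter C, the lowest of the 7 cells for Gria2 lay apart from the others. Its signal was 43.8, which becomes 5.64 on the log2 scale once values under 50 are set to 50, and the nearest other cell was at 8.91. The gap was 0.619 of the range of the 7 cells, above Dixon's critical value of 0.568. This cell had Eomes above 50 but neither Sox2 nor Tubb3, and 4056 genes above 50 against a letter C median of 4616. Of 6 sets of cells tried this 1 stood out, and such a rule picks out a set now and then by chance.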

How the results depend on the processing

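No paired analysis was possible because CP shares no title number with VZ/SVZ and letters D and B share 1. Of the counts and summaries, 142 values under an alternative stayed close to the main value and 25 moved. With the floor at 6.26, the 95th percentile of the control RNA, members in at least 7 cells went from 6 to 30, members in no cell from 22 to 2, the median per cell from 3 to 11, Gria2 with another AMPA subunit from 19 to 37 cells and an alpha with a beta subunit from 0 to 33 cells. Members lower in CP than in VZ/SVZ went from 0 to 2 and those lower in CP than in letter D from 1 to 2. Leaving out each CP cell in turn gave 0 to 1 and 1 to 2, the higher values without the second CP cell. Members higher by Tubb3 were 2 with a floor of 25, 0 with the highest probe set of each gene and 2 with Tubb3 above 200. Members lower by Eomes were 0 with a floor of 100, and 1 with the highest probe set, with quantile scaling, in letter X alone and without letter X. Members higher in letter D than in letter B were 1 with a floor of 100, and an alpha with a beta subunit was found in 1 cell with the highest probe set. The Eomes difference of Gria2 turned to 0.33 in letter X alone. Without the title number 18, members higher by Tubb3 were 0, lower by Eomes 1, higher in letter D than in letter B 1 and lower in CP than in letter D 2. The Gria3 difference of letter D against letter B then turned to -0.18, on 2 letter D cells that were both under 50. With the title number as a block, 0 were higher by Tubb3 and 1 lower by Sox2. The cause was not tested for any of these. Over all alternatives tried, the Gria2 difference by Sox2 ran from -2.21 to -1.14 and that of letter D against letter B from 3.42 to 4.24. The settings without letter X and those on the title number were added after seeing the data.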
